A study of Mus musculus with 28 samples.

Results

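Cytosolic ribosomal protein genes were described in the CA1 field of the mouse hippocampus. The members were the protein-coding genes whose symbol follows the pattern of a large subunit (Rpl, Rplp) or small subunit (Rps, Rpsa) protein, without pseudogenes, S6 kinases and Y-linked genes. The rule found 83 of the 48709 gene identifiers in the count files, 51 for the large and 32 for the small subunit. Fau, which encodes a ribosomal protein fused to a ubiquitin-like protein, lies outside the pattern, while Rps27a, a ubiquitin fusion, lies within it.

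RNA came from 9 transgenic vorinostat, 9 transgenic vehicle and 10 wildtype vehicle libraries. Transgenic mice carried CamkdeltaC, a form of the calcium-regulated kinase CaMKII, and their wildtype littermates did not. Such mice are known as a heart failure model in which the kinase is made in heart muscle. Vorinostat, an inhibitor of histone deacetylases, or vehicle was given in drinking water from 2 months of age for 4 weeks, and CA1 was dissected at 3 months. Wildtype mice given vorinostat are not analysed here, so the drug is always combined with the transgene. Both sexes were used, and the sex behind each library is not stated in the sources used here. No label states that libraries stem from different mice, and the p-values then describe only how these samples vary, which could be technical.

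The ribosome translates messages into protein. Its small subunit reads the message, and its large subunit joins amino acids and threads the growing chain through an exit tunnel. Ribosomal proteins are made in matched amounts to pair with ribosomal RNA, and neurons use ribosomes in the cell body and in dendrites. In vertebrates their messages are known to start with a C followed by a run of C and U, the terminal oligopyrimidine tract, through which the kinase mTORC1 and the protein LARP1 control their translation.

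That start was looked for in the promoter table of RefSeq for GRCm38.p6, in which 63 of the 83 genes were matched. A C at the listed start followed by at least 4 further C or T, read on the gene's own strand, was found in 13 of the 63 genes (20.6%), against 813 of 27025 genes in the whole table (3.01%). A match describes the letters at a listed start, and the listed start of other members need not be the one used in CA1. The starts of 6 of the 13 are shown, because the values of these genes are described in detail, each from 30 bases before the start to 20 bases from it on, with the tract in capitals.
Rpl38, chr11:114668550-114668599, plus strand: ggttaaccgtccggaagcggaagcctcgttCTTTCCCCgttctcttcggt
Rpl28, chr7:4792935-4792984, plus strand: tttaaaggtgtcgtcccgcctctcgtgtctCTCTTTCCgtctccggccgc
Rpl35a, chr16:33056452-33056501, plus strand: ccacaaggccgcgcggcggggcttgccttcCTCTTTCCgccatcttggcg
Rps6, chr4:86857348-86857397, minus strand: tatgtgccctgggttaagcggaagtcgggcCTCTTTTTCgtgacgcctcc
Rps18, chr17:33955646-33955695, minus strand: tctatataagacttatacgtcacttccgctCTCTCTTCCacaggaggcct
Rps27, chr3:90213629-90213678, minus strand: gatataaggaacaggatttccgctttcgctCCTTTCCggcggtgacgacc
These genes share the kind of start but not their behaviour between libraries: by the SD of log2 CPM (counts scaled to an equal library total) within groups, Rpl35a (0.79), Rps27 (0.34) and Rpl38 (0.33) were among the most variable members, while Rpl28 (0.18) and Rps18 (0.16) were among the steadiest.

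The libraries held 20230085 to 33191857 counts. The ribosomal protein genes together took 54229 to 111060 of them, which is 0.247% to 0.409% of a library. To describe the dissection, markers of hippocampal neurons were summed. The 8 markers of CA1 pyramidal neurons, all detected in every library, summed to 981 to 1644 CPM. The sums were 80.9 to 165 CPM for 4 markers of CA2 and 83.5 to 120 CPM for 4 of CA3. For 4 of dentate granule neurons the sum was 21.9 to 91.2 CPM. These sums are over different genes and not per length, so they do not measure the purity of the dissection. Markers of other cells were summed too, with 2946 to 6662 CPM for 4 markers of oligodendrocytes and 1058 to 1660 CPM for 4 of astrocytes. For 5 of interneurons the sum was 786 to 898 CPM. It was 5.56 to 99.5 CPM for 4 of choroid plexus, with Ttr at 1.66 to 91.1 CPM. Kl was at 2.05 to 7.09 CPM, Aqp1 at 0.186 to 0.943 CPM and Folr1 at most at 0.755 CPM. For 3 of heart muscle the sum was 8.62 to 18.3 CPM. Myh6 was at 5.61 to 10.7 CPM, Tnnt2 at 0.553 to 9.32 CPM and Actc1 at 0.0403 to 0.342 CPM. Whether cells of choroid plexus or heart muscle were present was not tested. Libraries that stood apart are described first, because all group comparisons of the ribosomal protein genes include them.

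The highest ribosomal protein shares were in 5 libraries, from all 3 groups. In transgenic vorinostat libraries the share had a lowest, median and highest value of 0.247%, 0.274% and 0.409%, and replicates 6, 7 and 9 stood at 0.404%, 0.408% and 0.409%. In transgenic vehicle libraries the values were 0.265%, 0.273% and 0.367%, and the highest was replicate 5. In wildtype vehicle libraries they were 0.248%, 0.273% and 0.391%, and the highest was replicate 2. The group medians lay close together and the ranges overlapped. The other 23 libraries spanned 0.247% to 0.335%, with wildtype vehicle 5 next in order.

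Both subunits shared this split. Large subunit genes summed to 0.139% to 0.227% of counts in vorinostat, 0.149% to 0.201% in transgenic vehicle and 0.140% to 0.215% in wildtype vehicle libraries. Small subunit genes summed to 0.108% to 0.182%, 0.114% to 0.167% and 0.108% to 0.176% in the same groups. The ratio of large to small subunit counts was 1.20 to 1.24 in the 5 libraries and 1.24 to 1.33 in the other 23. The small subunit genes thus took a slightly larger part where the total was high.

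**Figure D1:**
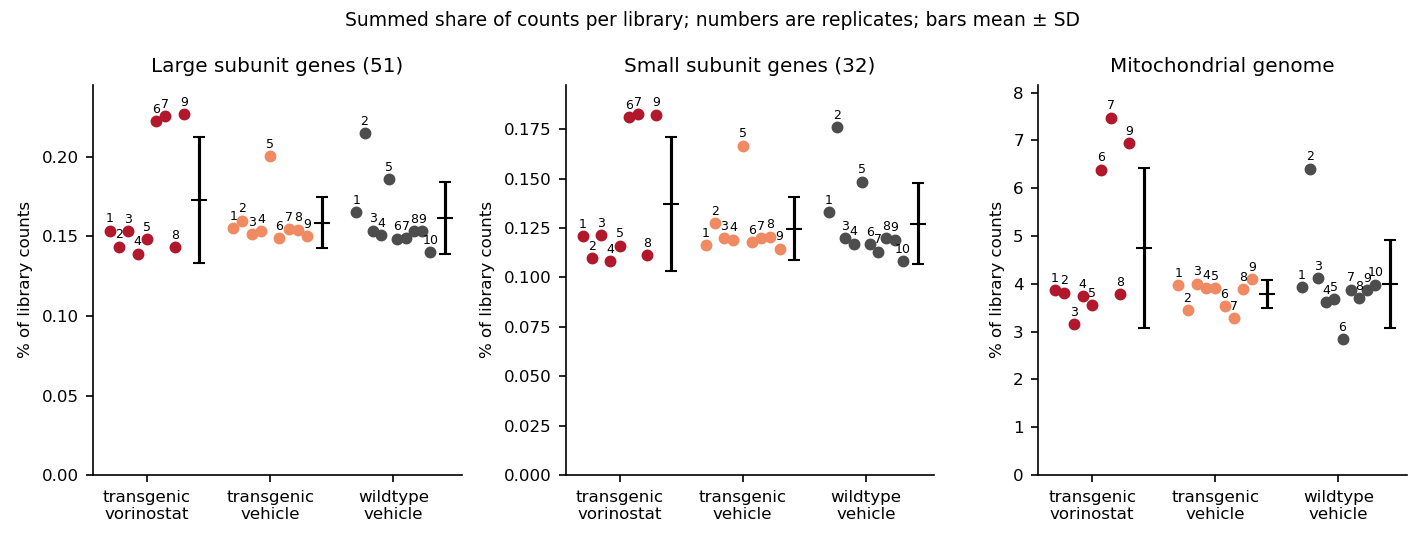
Summed share of library counts (%) in the 51 large subunit genes, the 32 small subunit genes and the mitochondrially encoded genes, 1 point per library with its replicate number, bars mean ± SD. Vorinostat 6, 7 and 9, transgenic vehicle 5 and wildtype vehicle 2 lie highest for both subunits, and 4 of these 5, without transgenic vehicle 5, also lie highest for the mitochondrial share.

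Single genes followed the sum. The 5 libraries were picked by the sum of these same members, so the counts below follow in part from that choice. All genes were not picked in this way, and their shares are given for reference only. Of the 79 members that passed the filter on low counts, 69 to 76 were above their own mean over all libraries in each of the 5 libraries, and 7 to 65 in each of the other 23. Vorinostat 6, 7 and 9 were the 3 highest of their group for 61 of the 79 members, where 19.9% of all 17009 genes tested had that order. Transgenic vehicle 5 was the highest of its group for 59 of 79 (21.0% of all genes), and wildtype vehicle 2 for 59 of 79 (24.0%). All 3 patterns held together in 47 members (59.5%), against 5.80% of all genes. None of the 3 was shown by 10 members, among them Rpl3, Rpl10a, Rpl27, Rpl28, Rpl29, Rpl34, Rps2, Rps13 and Rps18.

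**Figure D2:**
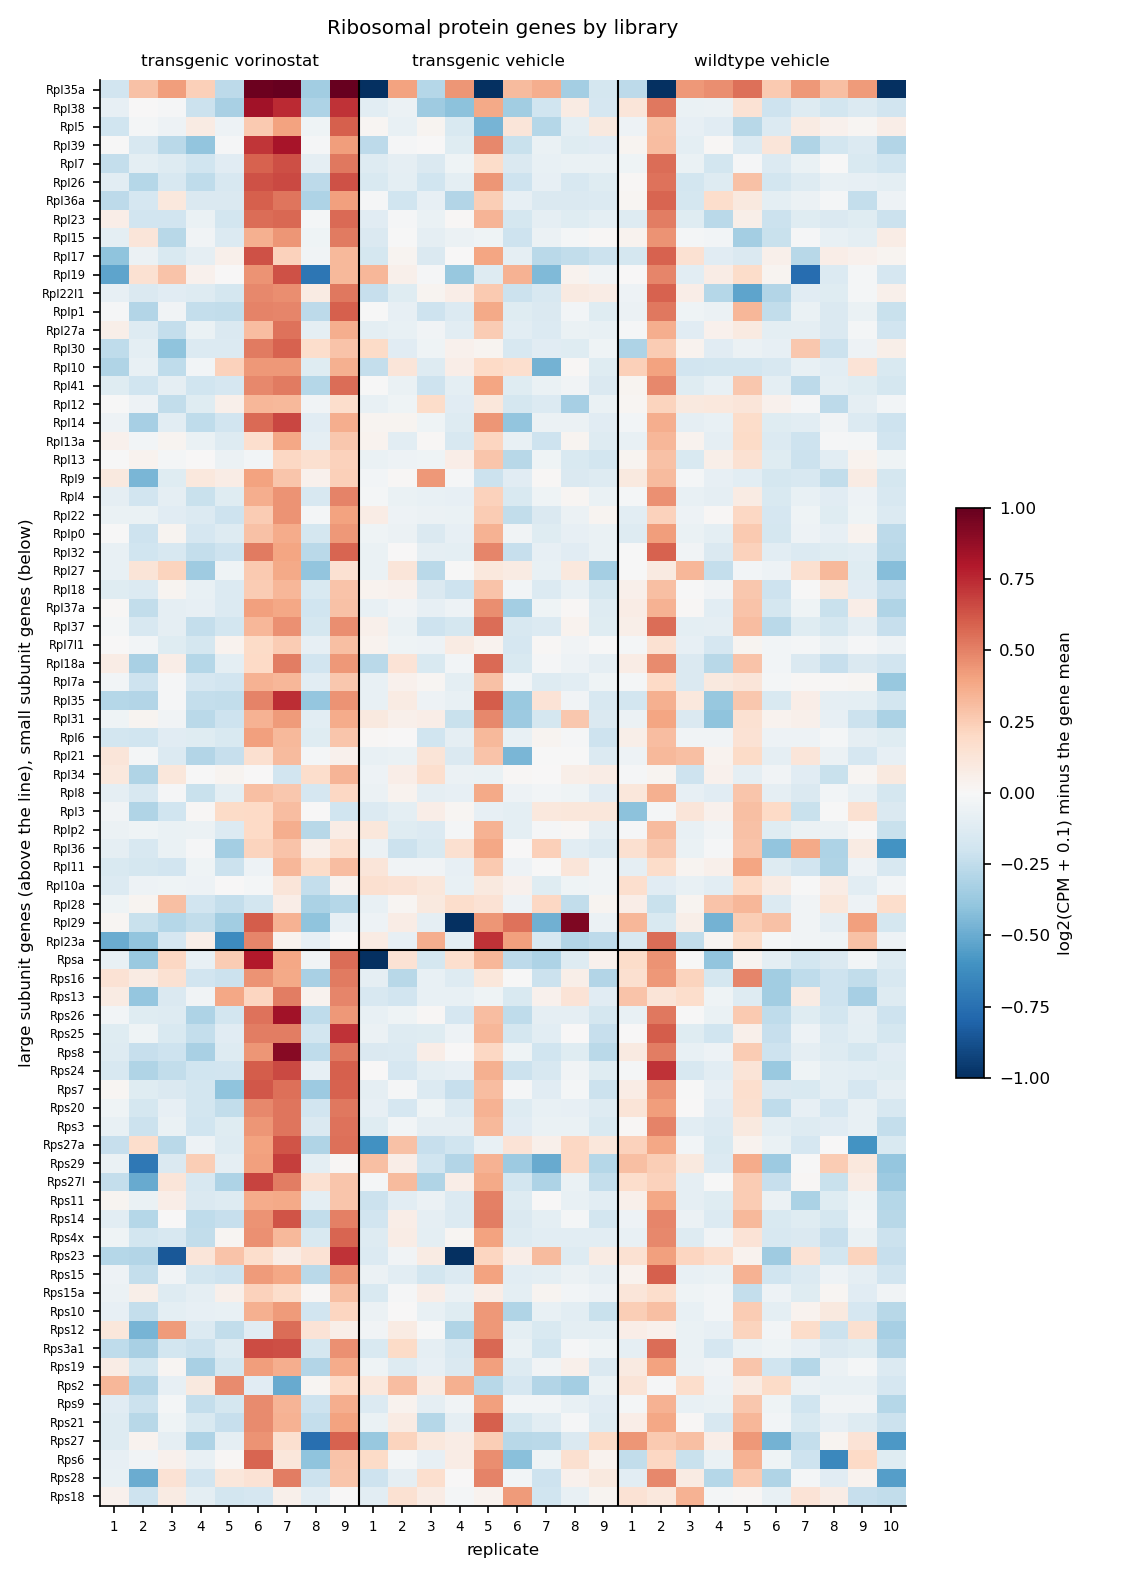
Deviation of 77 of the 79 ribosomal protein genes from their means over 28 libraries, in log2(CPM + 0.1), with libraries in columns by group and replicate and genes in rows by subunit, ordered by fold change of vorinostat against transgenic vehicle. The red columns are vorinostat 6, 7 and 9, transgenic vehicle 5 and wildtype vehicle 2, and Rpl35a, in the top row, departs from them in transgenic vehicle 5 and wildtype vehicle 2.

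Other measures moved with these libraries. Mitochondrially encoded genes took 6.39% to 7.48% of counts in vorinostat 6, 7 and 9 and wildtype vehicle 2, but 3.91% in transgenic vehicle 5, within the 2.84% to 4.11% of the other 23 libraries. Summed hemoglobin was 129, 74.2 and 91.9 CPM in vorinostat 6, 7 and 9, 43.5 CPM in transgenic vehicle 5 and 101 CPM in wildtype vehicle 2, with 16.9 to 53.4 CPM in the other 23 libraries. Genes with up to 1000 exon bases had a median deviation from their own medians over all libraries of 0.09 to 0.19 (log2 CPM) in the 5 libraries and of -0.07 to 0.08 in the other 23, without overlap. Genes with 1000 to 2000 bases had 0.10 to 0.16 in the 5 and -0.06 to 0.12 in the others. Genes over 5000 bases had -0.09 to -0.04 in the 5 and -0.10 to 0.03 in the others. The part of mitochondrial share, blood or transcript length in the ribosomal protein values was not tested. In dissected tissue, fewer cells of a type and less RNA per cell cannot be told apart.

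Levels between genes were compared per length, in TPM, a count per exon length scaled to the same sum in each library, over the joined exons of each gene. Among the 79 members that passed the filter, the 5 highest in wildtype vehicle libraries were Rplp1 at 1360 ± 200.4 TPM, Rps15 at 898 ± 144 TPM, Rpl4 at 818 ± 80.6 TPM, Rpl8 at 693 ± 74.7 TPM and Rps21 at 450 ± 57.0 TPM (SD, n = 10). Rplp1 belongs to the stalk that recruits elongation factors, and Rpl4 lines the exit tunnel. Rps15 and Rpl4, and Rpl4 and Rpl8, were nearer than the sum of their SDs, while Rplp1 and Rps15, and Rpl8 and Rps21, were further apart than that. The 5 lowest of the 79 were Rps23 at 3.98 ± 0.584, Rpl19 at 3.61 ± 0.731, Rpl23a at 3.29 ± 0.543, Rpsa at 2.43 ± 0.349 and Rpl29 at 1.79 ± 0.436 TPM, and each of these neighbours in the order was nearer than the sum of the SDs. Group means kept this scale: Rplp1 was at 1417 ± 308 TPM in vorinostat and 1323 ± 156 TPM in transgenic vehicle libraries (SD, n = 9 each).

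Ribosomal protein genes have many processed pseudogenes, and reads of 50 bases that fit more than 1 place can be lost in counting; how such reads were treated is not given in the sources used here. For each member, the 50-base windows of its RefSeq transcripts were searched in the transcripts of all other annotated genes on both strands. The share of windows found elsewhere had a median of 53.1% and ran from 0, the value of Rpl3l and Rpl39l, to 98.6% for Rps27. It was over 50% in 44 of 83 members, over 80% in 18 and under 10% in 10. Across the 79 members that passed the filter, the share and log2 TPM had Spearman's rho = -0.58, given as a description, since both rest on transcript sequence and length. Rpl8 and Rps3 combined little sharing with high levels, whereas Rpl5, with 93.8% shared, was at 5.38 ± 0.467 TPM, and Rps6, with 84.6%, at 5.42 ± 1.02 TPM. Counts per 1000 unshared windows, a scale chosen after seeing the data, gave the 5 highest members 33.9% of the sum, against 52.5% in TPM. Length also differs between these scales, since windows come from RefSeq transcripts and TPM uses the joined exons of each gene. Per unshared window Rps27 was second highest, but its value rests on 4 unshared windows of 296. Of the 10 highest members, 7 were common to both scales.

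**Figure D3:**
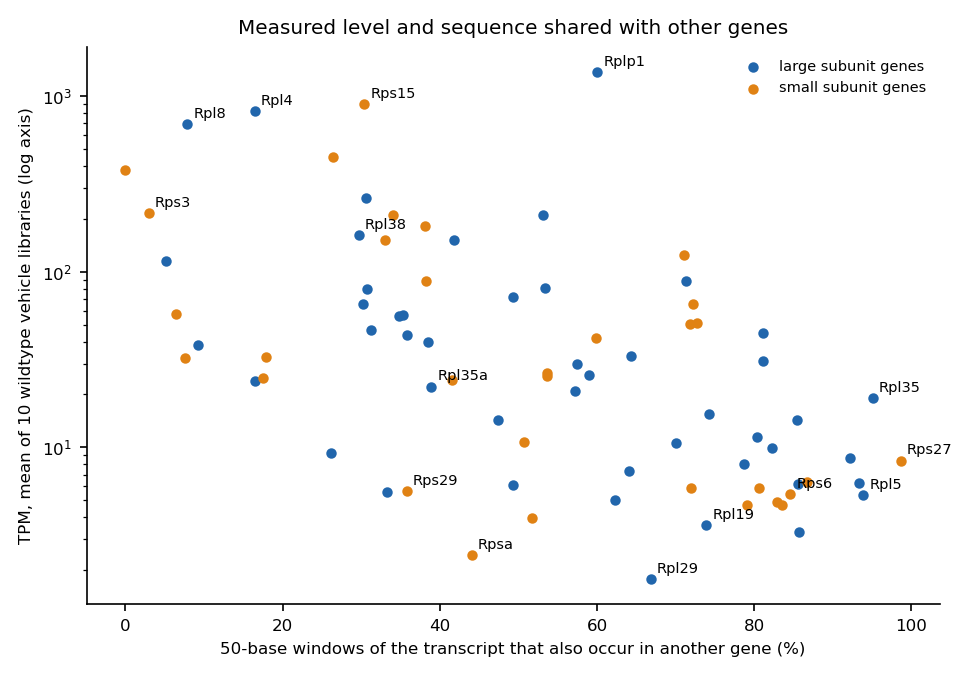
Measured level (mean TPM of 10 wildtype vehicle libraries, log axis) against the percent of 50-base transcript windows that also occur in another gene, 1 point per ribosomal protein gene that passed the filter. Levels run lower towards the right (rho = -0.58), and Rpl8 and Rps3 lie high at the left.

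Members of paralog pairs differed in level. Rpl3, near the peptidyl transferase centre, was at 6.19 ± 0.963 TPM in wildtype vehicle libraries, and its heart and skeletal muscle paralog Rpl3l had 1 to 14 counts per library and did not pass the filter. Rpl39, a small protein of the exit tunnel, was at 24.0 ± 2.92 TPM, and its male germ cell paralog Rpl39l had 0 to 3 counts. Rpl10, which joins late in large subunit maturation, was at 8.69 ± 1.17 TPM, while the testis paralog Rpl10l had 0 counts in all 28 libraries. Rpl22 was at 115 ± 8.20 TPM and Rpl22l1 at 25.8 ± 4.76 TPM, and Rpl7 at 80.6 ± 10.6 TPM and Rpl7l1 at 38.4 ± 1.58 TPM. The order of Rpl22 and Rpl22l1 depended on the scale. Per 1000 unshared windows Rpl22 was at 42.8 ± 4.28 CPM and Rpl22l1 at 54.2 ± 12.2 CPM. Of their windows, 5.19% and 58.9% were shared. Length differed too: Rpl22 had 2911 joined exon bases and 2002 windows, and Rpl22l1 had 1989 and 560. How much sharing and length each contributed was not tested. Rps27l, at 24.7 ± 3.15 TPM, was above Rps27 at 8.41 ± 1.97 TPM, but 98.6% of Rps27 windows occur elsewhere against 17.5% for Rps27l. Rps4x was at 65.6 ± 8.12 TPM, and its partner Rps4l is annotated as a pseudogene and was not a member. The remaining gene that did not pass the filter was Rpl24, with 4 to 16 counts per library and 81.7% of its windows shared.

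Members varied more between libraries of a group than the typical gene. The SD of log2 CPM within groups had a median of 0.25 over the 79 members and of 0.19 over all genes tested. It was smallest for Rpl10a (0.11), Rpl7l1 (0.12) and Rps15a (0.12) and largest for Rpl35a (0.79), Rpl29 (0.44) and Rps23 (0.38). Rpl29 and Rps23 had low counts, with medians of 11 and 29 per library, whereas Rpl35a had a median of 512.5.

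Rpl35a (ENSMUSG00000060636; GRCm38 chromosome 16, 33056453 to 33060189, plus strand), a large subunit protein whose human gene is mutated in some patients with Diamond-Blackfan anaemia, did not follow the other members. In vorinostat libraries it had a lowest, median and highest level of 13.7, 21.4 and 38.7 CPM, in transgenic vehicle libraries of 5.37, 15.5 and 23.8 CPM, and in wildtype vehicle libraries of 4.40, 22.5 and 25.6 CPM. The values fell in separate ranges with nothing between them. The lowest 4 libraries, transgenic vehicle 1 and 5 and wildtype vehicle 2 and 10, lay at 4.40 to 6.08 CPM. Another 7 libraries, vorinostat 1, 5 and 8, transgenic vehicle 3, 8 and 9 and wildtype vehicle 1, lay at 13.7 to 15.5 CPM. The other 14 below vorinostat 6, 7 and 9 lay at 20.6 to 25.6 CPM, and those 3 at 34.4 to 38.7 CPM.

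Set against the mean of the other 78 members in the same library, the 2 upper ranges came together. Rpl35a was then -1.53 to -1.20 (log2) in the 4 low libraries, 0.10 to 0.33 in the 7 intermediate ones and 0.79 to 1.20 in the 17 others. Transgenic vehicle 5 and wildtype vehicle 2, which were high for the other members, were low for Rpl35a. The largest gap between neighbouring libraries was 1.30 for Rpl35a and 0.74 for the next member, Rpsa. Low, intermediate and upper libraries numbered 0, 3 and 6 in vorinostat, 2, 3 and 4 in transgenic vehicle and 2, 1 and 7 in wildtype vehicle. The log2 fold change of Rpl35a was 0.59 (SE 0.318) for vorinostat against transgenic vehicle, with adjusted p = 0.359 by the quasi-likelihood test of edgeR. The 17 annotated pseudogenes that share windows with Rpl35a held 2 to 5 counts together in the 4 low libraries and 1 to 12 in the other 24. These counts are few, and reads that fit several places may have been left out of them. The ranges were found by looking at the values, and nothing else was tested about them.

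**Figure D4:**
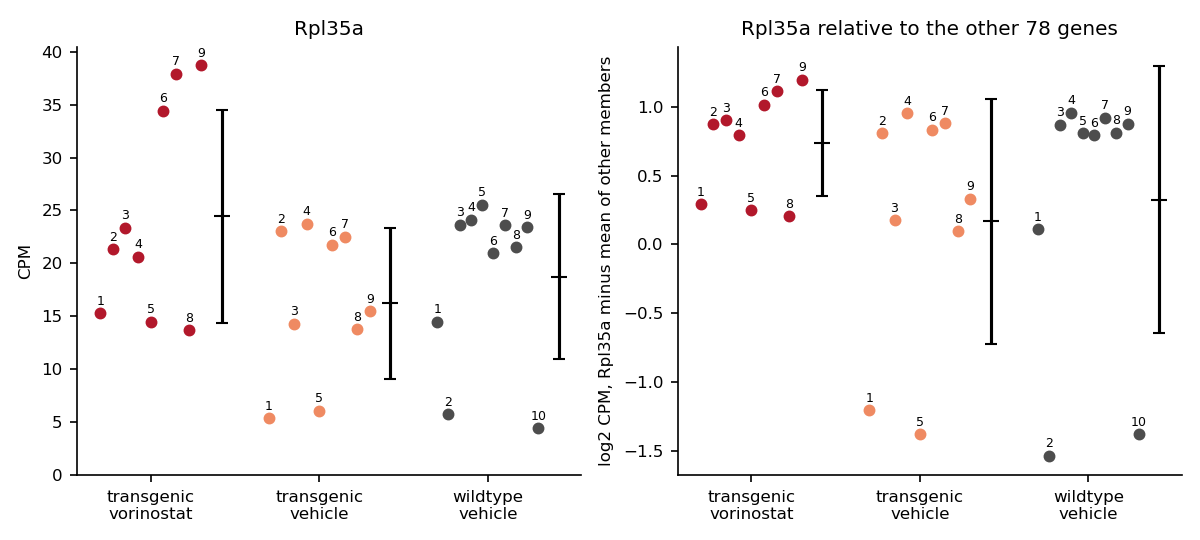
Rpl35a by library, as CPM (left) and as log2 CPM minus the mean of the other 78 ribosomal protein genes (right), 1 point per library with its replicate number, bars mean ± SD. On the right, libraries of all 3 groups fall in separate ranges, with transgenic vehicle 1 and 5 and wildtype vehicle 2 and 10 lowest, between -1.53 and -1.20.

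The first comparison asked what the transgene does in CA1, as transgenic vehicle against wildtype vehicle. No ribosomal protein gene passed the test. The edgeR test called 0 of 79 members and 0 of 17009 genes at an adjusted p under 0.05, and unadjusted p was under 0.05 in 0 members and 1.33% of all genes (1.21% by DESeq2 and 1.3% by limma voom). DESeq2 and limma voom also called 0 members. The log2 fold change was above 0 in 23 members, against 50.1% of all genes, with a median of -0.02 over the members, -0.02 over large subunit genes, -0.03 over small subunit genes and 0.00 over all genes. Without the 4 libraries of high mitochondrial share, vorinostat 6, 7 and 9 and wildtype vehicle 2, 55 members were above 0 (52.7% of all genes) and 0 had unadjusted p under 0.05 (2.38% of all genes). Without transgenic vehicle 5 as well, an alternative chosen after seeing the data, 22 were above 0 (51.8%) and 0 had unadjusted p under 0.05 (2.82%). Without wildtype vehicle 2 alone the median was 0.02 and 54 members were above 0, and without transgenic vehicle 5 it was -0.08 and 9 were above 0, so its direction depended on single libraries.

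Named members show the size of these differences. Rps6, the substrate of the S6 kinases, had a lowest, median and highest level of 1.60, 2.23 and 3.02 CPM in transgenic vehicle libraries and of 1.35, 2.02 and 2.78 CPM in wildtype vehicle libraries. The groups overlapped almost wholly, and the log2 fold change was 0.11 (SE 0.127, edgeR adjusted p = 0.9998). Rpl34 and Rpl31 had log2 fold changes of 0.07 each, and Rpl21, Rpl12 and Rpl36a of -0.10, -0.09 and -0.13, all with adjusted p = 0.9998. Rpl36a was 4.56 to 6.66 CPM in transgenic vehicle and 4.75 to 8.44 CPM in wildtype vehicle libraries, where the highest was wildtype vehicle 2.

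The second comparison, vorinostat against transgenic vehicle, asked what the drug does in transgenic mice. Again no ribosomal protein gene passed the test. The edgeR test called 0 of 79 members and 0 of 17009 genes, DESeq2 called 0 members and 1 gene of all (Igfbp4, adjusted p = 0.0250; 0.00588% of all genes), and limma voom called 0. Unadjusted p was under 0.05 in 4 members, against 14.4% of all genes (14.8% by DESeq2). The log2 fold change was above 0 in 72 of 79 members, against 50.9% of all genes, with a median of 0.10 over the members, 0.10 over large subunit genes, 0.11 over small subunit genes and 0.00 over all genes.

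The direction depended on the libraries that stood apart. Without vorinostat 6, 7 and 9 and wildtype vehicle 2, the 4 libraries of high mitochondrial share, 9 of 79 members were above 0 (48.3% of all genes). The median was then -0.11, and 9, all lower, had unadjusted p under 0.05 by edgeR (3.84% of all genes). This removal keeps transgenic vehicle 5, which was high for most members. Without transgenic vehicle 5 as well, which removes the 5 highest ribosomal protein shares, 14 were above 0 (48.3% of all genes). The median was then -0.05, and 2, both lower, had unadjusted p under 0.05 by edgeR (2.54% of all genes). The 5 libraries were picked by these members' own values, so lower values without them follow in part from the choice. With the mitochondrial share as a covariate 18 were above 0 and the median was -0.05. No member was called in these fits.

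Rpl38 (ENSMUSG00000057322; GRCm38 chromosome 11, 114668524 to 114672331, plus strand), a large subunit protein known in mouse for its part in translating Hox messages, had the smallest p. It was at 38.0, 35.7 and 35.1 CPM in vorinostat 6, 7 and 9 and at 16.9 to 21.2 CPM in the other 6 vorinostat libraries, against a lowest, median and highest level of 15.9, 18.9 and 27.6 CPM in transgenic vehicle libraries. The 3 high libraries were above all transgenic vehicle libraries, and the other 6 lay within their range. The log2 fold change was 0.34 (SE 0.150, edgeR adjusted p = 0.345), and it was -0.044 without the 4 libraries of high mitochondrial share.

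Rpl5, which carries 5S ribosomal RNA into the large subunit, had a lowest, median and highest level of 4.45, 5.06 and 7.83 CPM in vorinostat and 3.68, 4.87 and 5.59 CPM in transgenic vehicle libraries. Its lowest value was in transgenic vehicle 5, where most members were high. The log2 fold change was 0.21 (SE 0.0990, edgeR adjusted p = 0.345), and 0.03 without the 4 libraries. Rps13 was at 2.49, 3.48 and 4.70 CPM in vorinostat and 2.85, 3.10 and 3.61 CPM in transgenic vehicle libraries, with a log2 fold change of 0.23. Rpsa, also known as the laminin receptor precursor, also had unadjusted p under 0.05, at 1.43, 2.20 and 3.34 CPM in vorinostat and 0.801, 1.72 and 2.40 CPM in transgenic vehicle libraries, and was named after its value was seen. Both pairs of groups overlapped, and both genes had adjusted p = 0.345.

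A few members were on the other side of 0. Rpl28 was at 4.88, 5.36 and 7.51 CPM (lowest, median and highest) in vorinostat and 5.12, 6.20 and 7.04 CPM in transgenic vehicle libraries, with a log2 fold change of -0.13 (SE 0.0863, edgeR adjusted p = 0.430) that was -0.11 without the 4 libraries. Rps18 was at 3.16, 3.42 and 3.87 CPM in vorinostat and 3.18, 3.74 and 4.96 CPM in transgenic vehicle libraries, with a log2 fold change of -0.11. Rpl23a, at the tunnel exit, was at 0.377 to 0.940 CPM in vorinostat and 0.503 to 1.12 CPM in transgenic vehicle libraries, with a log2 fold change of -0.25 (SE 0.176). Vorinostat 6, 7 and 9 were not the 3 highest of their group for Rpl28, Rps18 and Rpl23a. Rps6, slightly above 0, was at 1.61, 2.19 and 3.29 CPM in vorinostat and 1.60, 2.23 and 3.02 CPM in transgenic vehicle libraries. Its log2 fold change was 0.01. The groups overlapped for all 4 genes.

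**Figure D5:**
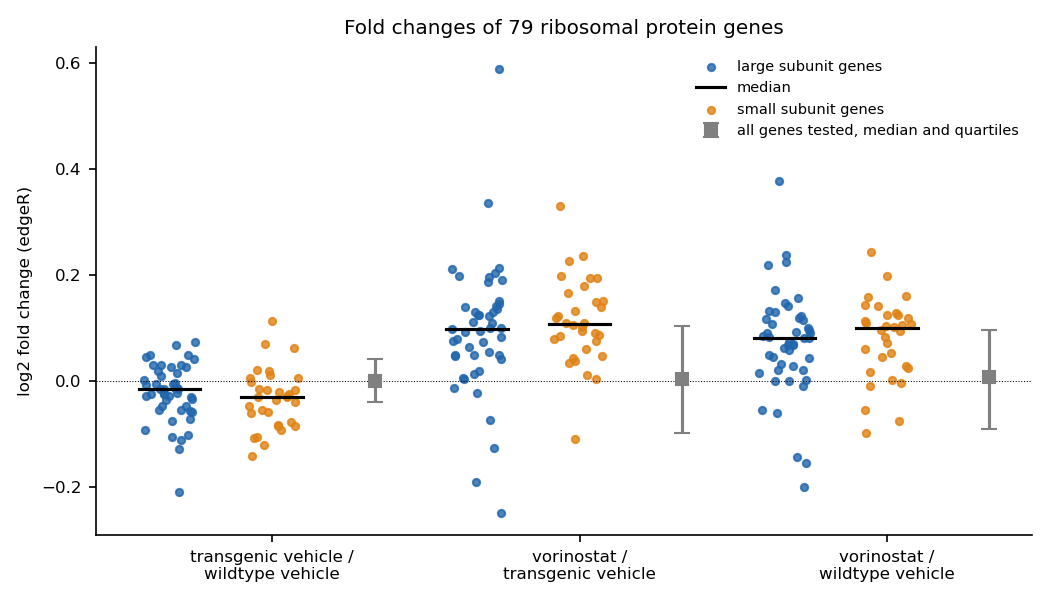
log2 fold changes (edgeR) of 47 large and 32 small subunit genes in the 3 comparisons, 1 point per gene with a line at the median, beside the median and quartiles of all genes tested. The medians lie at -0.02 and -0.03 for transgenic vehicle against wildtype vehicle, 0.10 and 0.11 for vorinostat against transgenic vehicle, and 0.08 and 0.10 for vorinostat against wildtype vehicle, and Rpl35a is the highest point of the last 2 comparisons.

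The third comparison, vorinostat against wildtype vehicle, shares the vorinostat libraries with the second and the wildtype libraries with the first, so it is not separate evidence. The edgeR test called 0 members and 0 genes, as did DESeq2 and limma voom, and unadjusted p was under 0.05 in 0 members and 12.6% of all genes (13.3% by limma voom). The log2 fold change was above 0 in 67 of 79 members, against 51.7% of all genes, with a median of 0.08. Without the 4 libraries of high mitochondrial share 12 were above 0 (49.5% of all genes), the median was -0.08, and 2 members had unadjusted p under 0.05 (4.17% of all genes). Without transgenic vehicle 5 as well, 12 were above 0 (49.4%) and 8, all lower, had unadjusted p under 0.05 by edgeR (5.19% of all genes). The 4 libraries were picked by mitochondrial share and the 5 by these members' own values. Transgenic vehicle 5 is in neither group of this comparison. Both sets include vorinostat 6, 7 and 9, which were high for most members. Lower values without them thus follow in part from the choice.

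Rpl23 was at 21.8, 24.5 and 37.1 CPM (lowest, median and highest) in vorinostat and 20.7, 22.8 and 35.5 CPM in wildtype vehicle libraries, with a log2 fold change of 0.22 (SE 0.111, edgeR adjusted p = 0.405). The groups overlapped, and the highest wildtype value was again replicate 2. Rpl39 was at 6.54, 8.61 and 15.4 CPM in vorinostat and 7.02, 7.98 and 10.7 CPM in wildtype vehicle libraries, with a log2 fold change of 0.24 that was -0.032 without the 4 libraries. Rps13 had a log2 fold change of 0.20, and Rpl28, Rps18 and Rpl23a of -0.15, -0.10 and -0.20, with edgeR adjusted p from 0.407 to 0.571.

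The rest of the translation machinery was followed in 8 lists, with 0 genes called in any list and comparison. For vorinostat against transgenic vehicle, the median log2 fold change was 0.05 over 36 initiation factors, with 21 above 0, and 0.06 over 13 elongation and termination factors, with 8 above 0. It was 0.10 over 20 other messages with a terminal oligopyrimidine tract, with 14 above 0, and 0.05 over 51 ribosome biogenesis genes, with 32 above 0. Mitochondrial ribosomal proteins had a median of 0.08, with 63 of 77 above 0, and the 4 companions of the ribosome a median of 0.09, with 3 above 0. The 7 mitochondrially encoded messages that passed the filter had a median of 0.32 with 7 above 0, and the 15 genes of mTORC1 and its inputs a median of -0.11 with 5 above 0. Without the 4 libraries of high mitochondrial share, the medians were -0.03, -0.04, -0.06, -0.01, -0.04, -0.07, -0.04 and 0.03 in the same order.

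Single genes of these lists had small differences too. Eif3b, of the initiation factor eIF3, was at 95.3 ± 10.8 CPM (SD, n = 9) in vorinostat and 106 ± 5.29 CPM (SD, n = 9) in transgenic vehicle libraries, with a log2 fold change of -0.16. Eef1a2, the elongation factor of neurons and muscle, was at 712 ± 109 CPM in vorinostat and 803 ± 36.2 CPM in transgenic vehicle libraries. Eif3f, Bop1 of large subunit assembly, Mrpl51, mt-Nd5 and Larp4 had log2 fold changes of -0.15, -0.17, 0.17, 0.27 and 0.17. All had edgeR adjusted p = 0.345. Companions of the ribosome had log2 fold changes of 0.11 for Fau, 0.06 for Rack1 and 0.15 for Rpl36al, with adjusted p from 0.412 to 0.693.

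By library, these lists followed the ribosomal protein genes to different degrees, in libraries picked by the ribosomal protein share itself. In transgenic vehicle 5, the mean log2 CPM of a list's genes, less its median over the 28 libraries, was 0.33 for ribosomal proteins, 0.17 for the other oligopyrimidine messages, 0.18 for mitochondrial ribosomal proteins, 0.11 for initiation factors and -0.09 for mitochondrially encoded messages. In vorinostat 6, 7 and 9 it was 0.44 to 0.49 for ribosomal proteins and 0.59 to 0.89 for mitochondrially encoded messages. Transgenic vehicle 5 thus had rank 5 of 28 libraries for ribosomal proteins and rank 21 for mitochondrially encoded messages.

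In the authors' deposited table of adjusted expression, on a log scale whose base is not given in the sources used here, 81 members were present. The median difference of the group means in the authors' deposited table was 0.02 for transgenic vehicle against wildtype vehicle (0.02 over all genes), 0.06 for vorinostat against transgenic vehicle (0.01 over all genes) and 0.08 for vorinostat against wildtype vehicle (0.03 over all genes). It was above 0 in 53, 67 and 68 of the 81 members, where the authors' deposited table had 59.9%, 52.6% and 58.5% of all genes above 0. In the same table the mean over members, less its median over libraries, was highest in vorinostat 6 (0.27) and 7 (0.22), while vorinostat 9 (0.04), transgenic vehicle 5 (0.00) and wildtype vehicle 2 (0.06) lay within the other libraries.

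The authors' deposited coexpression modules placed 40 of the 81 members in the yellow module (49.4%, against 6.20% of all genes) and 25 in the black module (30.9%, against 10.7%). Large and small subunit genes were 22 and 18 of the yellow and 14 and 11 of the black members. The authors' deposited membership scores had a median of 0.87 for yellow and 0.84 for black members. How the modules were built is not given in the sources used here.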

How the data were processed

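Polyadenylated RNA from CA1 was made into TruSeq libraries and sequenced as 50-base single reads, per the labels' protocols. The authors deposited raw counts per gene for each library, made per the submitters' processing notes with STAR 2.5.2b and featureCounts of Subread 1.5.1 on mm10 after FastQC 0.11.5. Which annotation was counted, whether strand was used, and what happened to reads that fit several places are not given in the sources used here, so reads of pseudogenes, overlapping or antisense genes may be split or lost. The authors also deposited adjusted expression, on a scale that resembles log2, which the file name ties to mixed linear modelling. The authors' deposited module membership is a score per gene over all samples.

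The main test was the quasi-likelihood F-test (R 4.3.3, edgeR 4.0.16) on counts with TMM scaling and all 28 libraries in the fit, for the genes that passed filterByExpr (minimum count 10, minimum total 15). P-values were adjusted by the Benjamini-Hochberg method over 17009 genes, with a threshold of 0.05. CPM are counts scaled to the TMM effective library size, and log2 CPM used a prior count of 2. Alternatives were DESeq2 1.42.0, limma 3.58.1 with voom, other scalings, no filter, a replicate block, the mitochondrial share as covariate, and leaving out libraries; removing the 5 libraries of high ribosomal protein share and the scale per unshared window were added after seeing the data. Tables were made with Python 3.11.15, pandas 2.3.3, numpy 2.4.6 and scipy 1.17.1. On data simulated for vorinostat against transgenic vehicle over 16914 genes, the test recovered 74% of 100 genes changed by 0.5 (log2). It recovered 100% of 100 changed by 1, with 10 false calls. The simulated counts were independent between genes, with a fixed dispersion, no shift of whole libraries and changes only in genes with higher counts. They do not give the power for the ribosomal protein genes, which shifted together in some libraries. No pair of the 117 within groups held identical counts, and the lowest chi-square per gene was 3.37. A count's precision is limited by depth, which was 20230085 to 33191857 per library.

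Members and lists were chosen with earlier results of these data known. Fold changes were named for the 3 members of smallest p in each direction in each comparison and for Rpl38, Rpl5, Rpl28 and Rps6, levels for the 5 highest and 5 lowest members and the paralog pairs, spread for 3 members at each end, and 1 gene of smallest p per list. A few genes are counted in the sums but are not reported here by name.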

Additional observations from a re-analysis of the deposited data

Results flagged for a closer look

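In 51 sets of library values, 1 for each group and quantity, the highest or lowest library was compared with the others by Dixon's test. In 8 sets a library stood apart. Chance gives about 1 in 20 for unrelated sets, but many of these quantities move together across libraries. The 8 are therefore not separate findings, and their number cannot be set against that rate. All 8 were transgenic vehicle 5 or wildtype vehicle 2. Dixon's test rests on the gap between the outermost library and its neighbour. Vorinostat 6, 7 and 9 lay close together for most members and can hide one another, so the lack of a flag does not place them with their group. In transgenic vehicle 5 the large subunit share was 0.201% of counts, with 0.149% to 0.160% in the other libraries of the group, and the small subunit share was 0.167%, with 0.114% to 0.128% in the others. Rpl23 was at 31.4 CPM in that library (at most 25.1 CPM in the others), Rpl36a at 6.66 CPM (4.56 to 5.57 CPM) and Rpl39 at 12.1 CPM (7.21 to 8.70 CPM). In wildtype vehicle 2, Rpl23 was at 35.5 CPM (20.7 to 25.9 CPM in the others), Rpl36a at 8.44 CPM (4.75 to 6.33 CPM) and Rpl38 at 30.7 CPM (18.4 to 23.4 CPM). The cause was not tested.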

How the results depend on the processing

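No ribosomal protein gene was called under any alternative run. Among all genes, DESeq2 called 1 for vorinostat against transgenic vehicle, and leaving out 1 library gave 0 to 1 calls there and 0 to 3 for vorinostat against wildtype vehicle, with 3 without wildtype vehicle 2. By the replicate numbers of the sample titles, the libraries did not pair. Of 27 same-numbered pairs, 7 correlated over 0.1, and 3 of 27 libraries matched their own number best. With the replicate block, by the same title numbers, 1 gene was called for vorinostat against wildtype vehicle and no member. The authors' deposited adjusted expression numbers many of these libraries differently, and pairing by those numbers was not tested. For vorinostat against transgenic vehicle, the members' median was -0.11 without the 4 libraries of high mitochondrial share, where Rpl38 was -0.044 and Rps6 -0.15. Rps6 was -0.090 with the mitochondrial covariate and -0.085 without the 5 libraries, where Rpl5 was -0.00875. For vorinostat against wildtype vehicle, Rpl39 was -0.0323 without the 4 and -0.0324 without the 5. With 1 library left out, Rpl31 for transgenic vehicle against wildtype vehicle was -0.0040 to 0.13, below 0 without transgenic vehicle 5, and Rps6 for vorinostat against transgenic vehicle was -0.068 to 0.072. The members' medians then were -0.08 to 0.02 for transgenic vehicle against wildtype vehicle, 0.05 to 0.15 for vorinostat against transgenic vehicle and 0.02 to 0.14 for vorinostat against wildtype vehicle. The 5 highest members held 33.9% of the sum per unshared window. Removing libraries leaves fewer samples, and the cause of the other shifts was not tested. With 1 library left out, unadjusted p by edgeR was under 0.05 in 0 to 8 of 79 members for vorinostat against transgenic vehicle. For vorinostat against wildtype vehicle it was in 0 to 10. With all libraries, 14.4% and 12.6% of all genes were under 0.05 in these 2 comparisons. The shares of all genes with 1 library left out are not given here, so these counts are not read as a result about the members. Low counts limit Rpl29, Rpl23a, Rpsa and Rps23.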
